A study of Mus musculus with 14 samples.

Results

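The Igf2bp family comprises 3 genes, Igf2bp1, Igf2bp2 and Igf2bp3, which encode RNA-binding proteins of the cytoplasm. The members were taken by gene symbol, and all 3 were found among the 55421 genes counted in set 1 and the 17490 counted in set 2. Igf2bp3 was picked because it was about 10 times lower with the hairpin against exon 9, so the set 2 values of the family are described without a test.

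The RNA came from organoids of a mouse tumor of the small intestine (APT organoids) that carried a doxycycline-inducible short hairpin RNA, either a control or one against Suv4-20h2. The gene symbol of Suv4-20h2 is Kmt5c, and its product places methyl groups on histone H4 in compact chromatin. Set 1 held 3 libraries of control 1 (titled shCtrl, for clone 1) and 3 of hairpin 1, which targets exon 4. Set 2 held 4 libraries of control 2 (shCtrl, clone 2) and 4 of hairpin 2, which targets exon 9. All 4 groups, the controls included, received 0.5 µg/ml doxycycline for 4 days. What the control hairpin targets, how the organoids were derived and whether replicates were separate cultures is not given in the sources used here, so the p-values speak for the spread among these libraries only, and that spread may be technical. Each hairpin was labelled as 1 clone with its own control, and clone, set and hairpin cannot be told apart.

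IGF2BP proteins bind coding regions and untranslated tails of mRNAs, many of them carrying N6-methyladenosine (m6A), and hold them in granules where they are protected from decay or kept from translation. Igf2bp1 and Igf2bp3 are called oncofetal because they are high in the embryo, low in most adult tissues and often raised again in tumors, while Igf2bp2 stays expressed in many adult tissues. The let-7 microRNAs repress the family through sites in the 3′ untranslated tails, and LIN28 proteins block let-7 maturation. In the intestine IGF2BP1 is known as a binder of the Myc mRNA and as a target of Wnt signalling.

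The let-7 sites are shown first, because they are the best known control that the 3 members share. The mature let-7a is given with its seed, bases 2 to 8, in capitals. Each site below it is a 30-base stretch of the 3′ untranslated region, read 5′ to 3′ from the GENCODE M21 transcripts (GRCm38), with the 7 letters that pair with that seed in capitals.
mmu-let-7a-5p: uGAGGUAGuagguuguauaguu
Igf2bp1: gtgcgaagtaaaCTACCTCaaggtgtgaag
Igf2bp2: cacaaataaaagCTACCTCaggtgtttttt
Igf2bp3: atttttactcaaCTACCTCaggtattcagt
These stretches lie at chr11:95961768-95961797 for Igf2bp1, chr16:22059463-22059492 for Igf2bp2 and chr6:49086777-49086806 for Igf2bp3, all on the minus strand. The letters CTACCTC were searched on the transcript strand alone. The 3′ untranslated region of Igf2bp1 (6337 bases) held 4 matches, of which the first is printed, while those of Igf2bp2 (1784 bases) and Igf2bp3 (2119 bases) held 1 each. A match was present in 8.86% of 20935 mouse 3′ untranslated regions of all lengths. Among regions of 0.8 to 1.25 times the length, 34.3% had at least 1 match for the length of Igf2bp1 and 0.331% had 4 or more. At the lengths of Igf2bp2 and Igf2bp3, 11.8% and 13.2% had a match. The same seed is shared by 11 mature names in the RefSeq table, among them let-7a to let-7g, let-7i and miR-98. Mature microRNAs were not measured here, and a match is a description of the letters, not of a working site.

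Igf2bp1 (ENSMUSG00000013415) lies on GRCm38 chromosome 11 from 95957163 to 96005940, Igf2bp2 (ENSMUSG00000033581) on chromosome 16 from 22059009 to 22163299, and Igf2bp3 (ENSMUSG00000029814) on chromosome 6 from 49085223 to 49214957. All are protein-coding genes on the minus strand. The gene body of Igf2bp3 overlaps that of Malsu1 on the other strand, and whether the counting used strand is not given in the sources used here. Malsu1, a mitochondrial ribosome assembly gene, had a log2 fold change of 0.03 with hairpin 2 (edgeR adjusted p = 0.899), against -3.37 for Igf2bp3. Mir3063 and Gm29202, which overlap Igf2bp1, had no count in set 1.

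Total counts ran from 9272134 to 26284079 per library. The targeted gene Kmt5c averaged 71.7 ± 4.24 CPM (SD, n = 3) in control 1 against 57.9 ± 5.58 CPM (SD, n = 3) with hairpin 1. It averaged 123 ± 6.41 CPM (SD, n = 4) in control 2 against 108 ± 6.40 CPM (SD, n = 4) with hairpin 2. The groups did not overlap in either set, as for 12.8% of all tested genes in set 1 and 15.3% in set 2. The edgeR quasi-likelihood test gave adjusted p-values of 0.801 for hairpin 1 and 0.0977 for hairpin 2. With the replicate number as a block they were 0.819 and 0.00741, where 0.0% and 20.4% of all genes passed. Summed CPM of 10 intestinal epithelial markers ran from 5580 to 7920 over the 14 libraries. In set 2 that sum was 6850 to 7140 CPM in control 2, against 5580 to 6300 CPM in hairpin 2, and all 10 lay below 0, and 4 passed as lower (Cdh1, Krt8, Krt18 and Cdx1), against 4.01% of all genes. The part of this in the results below was not tested. The marker lists of other cell types were complete in set 1 but not in set 2. Set 2 listed 3 of 6 endothelial, 5 of 9 stromal, 3 of 8 immune and 6 of 8 neural and neuroendocrine genes. The sums that follow thus cover fewer genes in set 2. Endothelial markers summed to 50.4 CPM in hairpin 1 replicate 1, of which Cdh5 made 49.5 CPM, and to at most 2.96 CPM elsewhere. Stromal markers summed to 11.3 to 12.7 CPM in control 2, against 13.9 to 15.8 CPM in hairpin 2, and to at most 10.7 CPM in set 1, with Dcn, Lum and Thy1 at 0 there. In set 2 Pdgfra passed as higher (0.55, edgeR adjusted p = 0.00938) and Pdgfrb as lower (-3.41, adjusted p = 0.00732). Pdgfrb was low throughout set 2, at 1.44 CPM in control 2 and 0.128 CPM in hairpin 2, there from at most 4 counts per library. The part of these 2 genes in the results was not tested either. Immune markers summed to 55.1 CPM in hairpin 1 replicate 1, of which Cd68 made 53.8 CPM, and to 6.35 to 39.4 CPM elsewhere. Neural and neuroendocrine markers summed to 0.382 to 22.3 CPM.

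Per length, Igf2bp2 was the main member in all 14 libraries, and the order of the other members differed between the sets and changed in set 2. CPM are counts scaled to the TMM-adjusted total of the library, and CPM per kb divides them by the merged exon length. In control 2 the levels were 34.4 ± 1.09 CPM per kb for Igf2bp2, 1.89 ± 0.244 for Igf2bp3 and 0.253 ± 0.0355 for Igf2bp1 (SD, n = 4 each). In hairpin 2 they were 28.5 ± 1.88, 0.177 ± 0.0289 and 0.532 ± 0.0973 CPM per kb (SD, n = 4 each). Igf2bp3 thus stood above Igf2bp1 in each of the 4 control 2 libraries and below it in each of the 4 hairpin 2 libraries. Igf2bp3 made up 4.45 to 5.62% of the family's CPM per kb in control 2 and 0.542 to 0.698% in hairpin 2, while the share of Igf2bp1 was 0.596 to 0.843% and then 1.57 to 2.08%. In set 1, Igf2bp1 was above Igf2bp3 in every library. It made up 3.23 to 9.74% of the family in control 1 and 3.61 to 11.8% in hairpin 1, and Igf2bp3 made up 0.35 to 0.719% and 0.0248 to 1.66%.

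**Figure D1:**
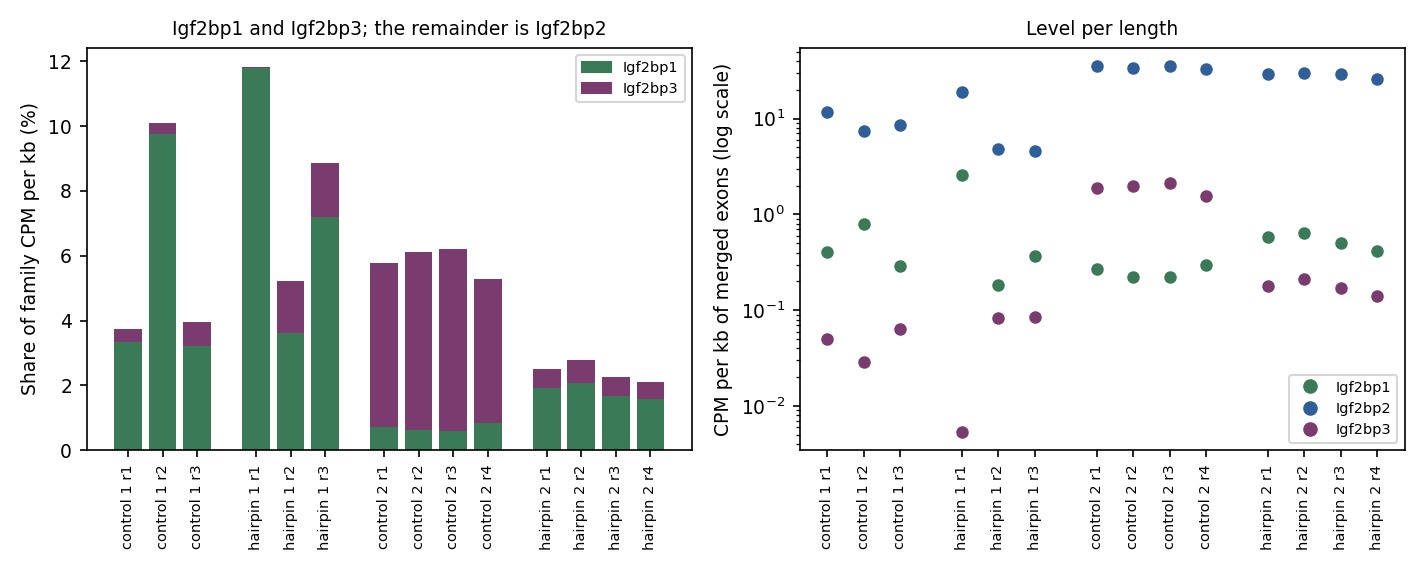
Left, share of the family's CPM per kb (%) taken by Igf2bp1 and Igf2bp3 in each of the 14 libraries, the remainder being Igf2bp2. Right, CPM per kb of merged exons of each member on a log axis. Igf2bp3 is above Igf2bp1 in the 4 control 2 libraries and below it in all others.

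Igf2bp3, one of the oncofetal members, was lower in every hairpin 2 library than in any control 2 library. Control 2 had 339, 326, 453 and 316 counts of it, and hairpin 2 had 33, 44, 13 and 14. These gave 15.4, 16.3, 17.3 and 12.7 CPM in control 2, while hairpin 2 libraries had 1.47, 1.74, 1.41 and 1.16 CPM. The 4 control libraries were alike, with replicate 4 lowest, and the hairpin libraries were alike too, again with replicate 4 lowest. The group means were 15.4 ± 1.99 and 1.44 ± 0.236 CPM (SD, n = 4 each), a log2 fold change of -3.37 (SE 0.157) or 10.4-fold lower. Counting error alone gives 95% Poisson intervals whose highest bound was 2.40 CPM in hairpin 2 and whose lowest bound was 11.3 CPM in control 2. Of the 14126 genes tested in set 2, 39 had a lower log2 fold change, and 0.347% were over 8-fold lower. Since Igf2bp3 was chosen by this value, nothing is read from that rank or from the gap between these intervals.

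Igf2bp1, which binds Myc and beta-actin mRNAs, was higher in every hairpin 2 library than in any control 2 library. It had 2.63, 2.15, 2.18 and 2.85 CPM in control 2 from 58, 43, 57 and 71 counts. In hairpin 2 it had 5.61, 6.15, 4.86 and 3.98 CPM from 126, 156, 45 and 48 counts. The replicates 1 and 2 of hairpin 2 were highest and replicate 4 was nearest to the controls. The log2 fold change was 1.09 (SE 0.174), from a mean of 2.45 ± 0.344 to 5.15 ± 0.942 CPM (SD, n = 4 each). In set 2, 35 of the 14126 genes had a higher log2 fold change.

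Igf2bp2, the member expressed in many adult tissues and tied to metabolism, was lower in hairpin 2 by a small amount with no overlap between the groups. The control 2 libraries had 260, 252, 262 and 244 CPM of it, while hairpin 2 libraries had 218, 219, 216 and 190 CPM. The first 3 hairpin 2 libraries lay within 3 CPM of each other and replicate 4 lay below them. The log2 fold change was -0.27 (SE 0.0599), from 255 ± 8.10 to 211 ± 13.9 CPM (SD, n = 4 each), and 12.2% of the tested genes had a lower one. All 3 members thus had groups that did not overlap in set 2, 1 higher and 2 lower. Over all tested genes, the groups did not overlap for 15.3%, with hairpin 2 lower for 8.42% and higher for 6.88%. The contrast served to pick Igf2bp3, so the count is given as a description.

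**Figure D2:**
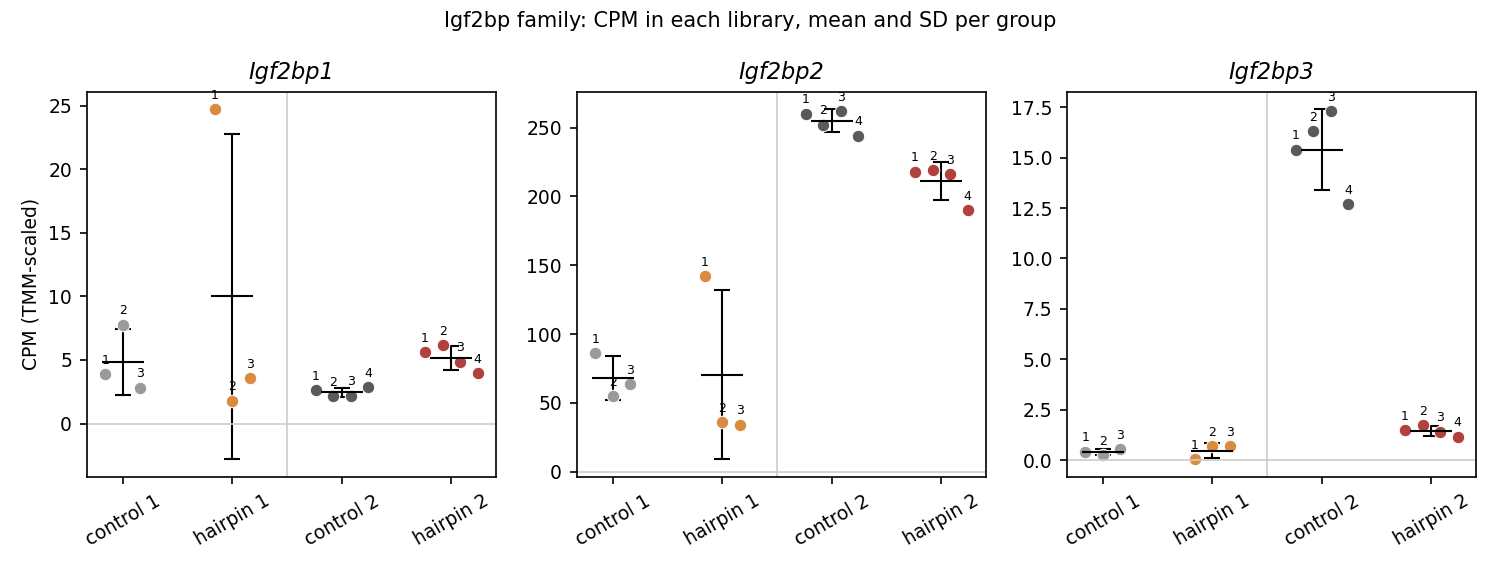
CPM of each member in each library (points, numbered by replicate), with the mean and SD of each group (line and bar), on linear axes. In set 2 the hairpin points lie above the control points for Igf2bp1 and below them for Igf2bp2 and Igf2bp3, and in set 1 replicate 1 of hairpin 1 lies far above the rest for Igf2bp1 and Igf2bp2.

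The hairpin against exon 4 was not used to choose the family. Neither member tested there passed the threshold, nor did any of the 13540 genes tested, whose smallest edgeR adjusted p was 0.801. The groups overlapped for all 3 members, while 12.8% of all tested genes did not overlap. Igf2bp1 had 3.89, 7.78 and 2.81 CPM in control 1, while hairpin 1 libraries had 24.7, 1.79 and 3.55 CPM. The value of 24.7 CPM, from 565 counts in replicate 1, stood alone, and the other hairpin 1 libraries lay below the middle control library. The log2 fold change was 1.06 (SE 0.953, edgeR adjusted p = 0.839). Without hairpin 1 replicate 1 it was -0.85 (SE 0.528, adjusted p = 0.458).

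Igf2bp2 had 86.0, 54.9 and 63.8 CPM in control 1, while hairpin 1 libraries had 142, 36.1 and 34.3 CPM. Replicate 1 of hairpin 1 was the highest of the 6 libraries and the other hairpin 1 libraries were the lowest. The log2 fold change was 0.05 (SE 0.558, edgeR adjusted p = 0.985). Without that library it was -0.96 (SE 0.225), with an adjusted p of 0.116. Both remaining hairpin 1 libraries were then below every control 1 library, as for 17.6% of the tested genes.

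Igf2bp3 was near the limit of detection in set 1. It had 7, 4 and 9 counts in control 1 (0.407, 0.236 and 0.526 CPM) and 1, 12 and 13 counts in hairpin 1 (0.0438, 0.673 and 0.688 CPM). Replicate 1 of hairpin 1, the library with the most Igf2bp1 and Igf2bp2, had the least Igf2bp3. Igf2bp3 did not pass the filter on low counts in set 1, so 2 of the 3 members were tested there. Without the filter its log2 fold change was 0.24 (SE 0.885, edgeR adjusted p = 0.962). Over all 13540 genes tested in set 1, 0.0% passed the threshold, with 732 (5.41%) at an unadjusted p under 0.05 and 20 (0.149%) called by DESeq2. The control of set 1 itself had only 0.390 ± 0.146 CPM of Igf2bp3 (SD, n = 3), and that of set 2 had 15.4 ± 1.99 CPM (SD, n = 4). The sets have no common control, and the levels of the members were not tested between them.

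**Figure D3:**
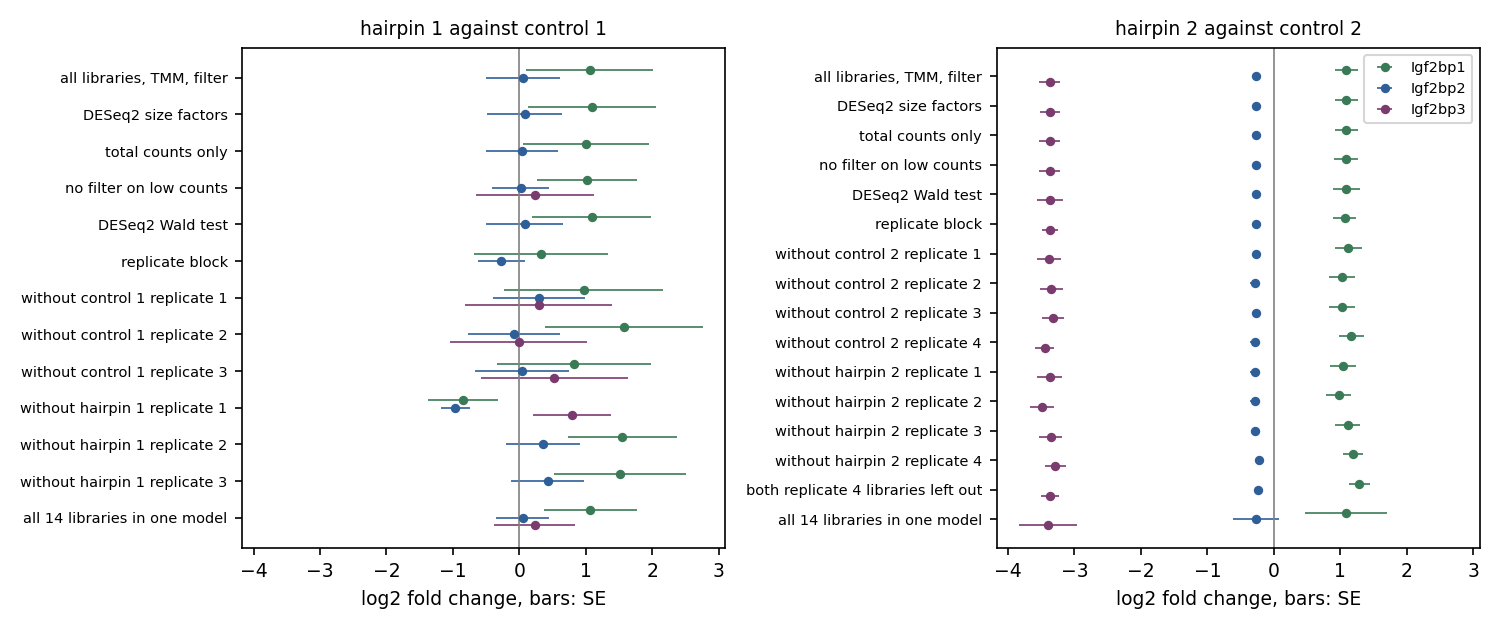
Log2 fold changes of the 3 members (points) with their SE (bars) in the chosen fit and each alternative, for hairpin 1 on the left and hairpin 2 on the right. On the right every alternative lies between -3.49 and -3.29 for Igf2bp3, between -0.29 and -0.22 for Igf2bp2 and between 0.98 and 1.29 for Igf2bp1. Igf2bp3 was chosen on that contrast, so its narrow range is a description. On the left Igf2bp1 and Igf2bp2 are below 0 without hairpin 1 replicate 1.

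The LIN28 and let-7 axis held the genes that act upstream of the family through let-7, and others that let-7 represses. Lin28a and Lin28b had 0 counts in all 6 set 1 libraries, which allows up to 0.131 to 0.177 CPM in each (3 counts of the scaled total). They were not among the 17490 genes listed in set 2, so they have no value there. Hmga2, a chromatin protein gene repressed by let-7 and stabilised by IGF2BP proteins, was well expressed, at 130 to 158 CPM in control 2, against 92.0 to 131 CPM in hairpin 2. Its log2 fold change was -0.36 in set 2 (edgeR adjusted p = 0.0776, and 0.000238 with the replicate block) and 0.59 in set 1 (adjusted p = 0.825). Hmga2 was at 107 CPM in hairpin 1 replicate 1 and at 33.3 and 33.6 CPM in replicates 2 and 3, and without replicate 1 the set 1 value was -0.20 (edgeR adjusted p = 0.686). Of 16 genes of the axis tested in set 2, 0 passed the edgeR threshold, where 6.05% of all tested genes did (4.01% lower and 2.04% higher). At an unadjusted p under 0.05 there were 5, where 19.8% of all genes were, and DESeq2 called 5, where it called 9.53% of all genes. Their median log2 fold change was 0.10 against 0.00 over all genes. With the replicate block 5 passed: Tut7 and Dicer1 as higher, and Hmga2, Hmga1 and E2f5 as lower, where 20.4% of all genes passed (10.1% lower and 10.2% higher). In set 1, 0 of 13 passed, with a median of 0.06, and of -0.16 without hairpin 1 replicate 1. Over all 6 pathway lists in set 1, edgeR called 0 of 90 genes, 4 were at an unadjusted p under 0.05, and DESeq2 called none in any list.

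The family is named after the Igf2 mRNA that its proteins bind, and the next list held the IGF ligands, receptors and binding proteins. Igf2 itself had 0 counts in every library except 1 count in control 2 replicate 4. Igf1, the other ligand, had 55.4 to 79.8 CPM in control 2, against 47.7 to 110 CPM in hairpin 2, with a log2 fold change of 0.04 (edgeR adjusted p = 0.958). In set 1 Igf1 had at most 2.10 CPM. The receptor gene Igf1r had 37.9 ± 6.24 CPM in control 2, against 49.8 ± 9.80 CPM with hairpin 2 (SD, n = 4 each), with overlap, and an adjusted p of 0.176 from edgeR (0.000356 with the replicate block).

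Igfbp3 and Igfbp5, secreted proteins that bind IGFs and limit or prolong their action, rose with hairpin 2. Igfbp3 had 47.8, 44.6, 47.4 and 52.0 CPM in control 2, while hairpin 2 libraries had 70.5, 61.7, 66.8 and 96.1 CPM, a log2 fold change of 0.62 (SE 0.126, edgeR adjusted p = 0.0173). Igfbp5 had 102, 81.3, 92.8 and 95.3 CPM in control 2, while hairpin 2 libraries had 161, 149, 163 and 104 CPM, a log2 fold change of 0.63 (SE 0.133, edgeR adjusted p = 0.0201). For both, every hairpin 2 library was above every control 2 library, with replicate 4 highest for Igfbp3 and lowest for Igfbp5. They were 2 of 9 tested genes of this list (22.2%, against 6.05% of all genes), none passed as lower, and the median was 0.29 against 0.00 over all genes. At an unadjusted p under 0.05 there were 5 (19.8% of all genes were), and DESeq2 called 4 (9.53% of all genes). With the replicate block 5 of the 9 passed as higher (55.6%, against 10.2% of all genes), the others being Igf1r and the receptor adaptor genes Irs1 and Irs2. Igfbp3 lost its call without control 2 replicate 1, 2 or 3, with adjusted p-values up to 0.0668, and in the model of 14 libraries (adjusted p = 0.989). Igfbp5 lost its call without control 2 replicate 2 or 3 or hairpin 2 replicate 1, 2 or 3, with adjusted p-values up to 0.074, and in the model of 14 libraries (adjusted p = 0.201). In set 1 Igfbp5 had no count in any library and Igfbp3 at most 9 counts, and 0 of 8 genes of the list passed.

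Among mRNAs reported elsewhere as IGF2BP targets, edgeR called 0 of the 25 tested with hairpin 2, while 8 were at an unadjusted p under 0.05 (19.8% of all genes were) and DESeq2 called 4 (9.53% of all genes). Of these, 13 lay above 0 and 12 below 0, and the median log2 fold change was 0.03. Myc, the proliferation factor whose mRNA IGF2BP1 shields from decay, had 303 to 367 CPM in control 2, against 295 to 310 CPM in hairpin 2, a log2 fold change of -0.12 (edgeR adjusted p = 0.356). In set 1 it was at -0.21 (adjusted p = 0.842). H19, a noncoding RNA that IGF2BP proteins bind, had 1.63, 1.65, 1.56 and 3.85 CPM in control 2, while hairpin 2 libraries had 0.847, 0.749, 0.432 and 1.49 CPM, with no overlap. Its log2 fold change was -1.31 (edgeR adjusted p = 0.0912, and 0.00215 with the replicate block). With that block 10 of the 25 passed (40.0%, against 20.4% of all genes), 7 higher and 3 lower (H19, Hmga2 and Abcb1a). In set 1, 0 of 24 passed, with a median of 0.02, and of -0.11 without hairpin 1 replicate 1.

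Genes of the m6A machinery, which writes, removes and reads the mark that IGF2BP proteins recognise, showed 0 of 19 past the edgeR threshold in either set, with 1 in each at an unadjusted p under 0.05 and 0 by DESeq2. Over all genes, 0.0% passed the threshold in set 1 and 6.05% in set 2, with 5.41% and 19.8% at that unadjusted p. The medians of the 19 were 0.04 with hairpin 1 and 0.06 with hairpin 2. In set 2, 3 passed as higher with the replicate block (Rbm15b, Cbll1 and Ythdf2). That was 15.8%, against 20.4% of all genes (10.2% higher). Of 17 tested partners found with IGF2BP proteins in RNA granules, 1 passed with hairpin 2 (5.88%, against 6.05% of all genes). This was Hnrnpk, an RNA-binding protein gene, which rose from 270 ± 13.6 to 316 ± 14.2 CPM (SD, n = 4 each). Its log2 fold change was 0.23 (edgeR adjusted p = 0.0479). It lost that call on leaving out any 1 library other than hairpin 2 replicate 4, with adjusted p-values up to 0.129, without the filter on low counts (0.0593) and in the model of 14 libraries (0.808). The median of the partners was 0.03. At an unadjusted p under 0.05 there were 2 (19.8% of all genes were), and DESeq2 called 2 (9.53% of all genes). Under the replicate block 3 passed (Syncrip, Hnrnpk and Ddx1, all higher). That was 17.6%, against 20.4% of all genes (10.2% higher). In set 1, 0 of 18 passed, with a median of 0.17.

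Among other oncofetal and fetal-type genes, Gpc3 rose with hairpin 2 and none passed as lower. Gpc3, a glypican of the embryo and of liver tumors, had 3.04, 3.91, 3.17 and 3.85 CPM in control 2, while hairpin 2 libraries had 9.36, 10.9, 8.11 and 11.3 CPM. Every hairpin 2 library was over the highest control, and the log2 fold change was 1.51 (SE 0.146, edgeR adjusted p = 0.000265), in the direction of Igf2bp1. In set 1 Gpc3 had 0.413 to 0.841 CPM over all libraries and a log2 fold change of 0.48 (adjusted p = 0.846), and the difference between the hairpin effects, from 1 model of all 14 libraries, did not pass (1.02, edgeR adjusted p = 0.284). Gpc3 was the only 1 of 11 tested genes of this list to pass in set 2 (9.09%, against 6.05% of all genes), and the median was -0.18. At an unadjusted p under 0.05 there were 6 (19.8% of all genes were), and DESeq2 called 3 (9.53% of all genes). With the replicate block 2 passed as higher (Gpc3 and Sox9) and 4 as lower, with H19 and Hmga2 among them (54.5% in all, against 20.4% of all genes). In set 1 all 10 tested genes lay above 0, with a median of 0.41, and 0 passed. Without hairpin 1 replicate 1, the library high in Igf2bp1 and Igf2bp2, 5 of the 10 lay above 0 and the median was 0.02. Over the 6 pathway lists together, 4 of 94 genes tested in set 2 passed (4.26%), against 6.05% of all genes. With the replicate block 29 passed (30.9%), against 20.4% of all genes.

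The genes around each member were examined, to see how their levels differed in the same libraries. Within 500 kb of the start of Igf2bp3 lay 17 protein-coding genes, of which 8 were tested in set 2. The nearest were Tra2a, a splicing factor gene (49.1 kb away, log2 fold change -0.07, edgeR adjusted p = 0.607), Ccdc126 (104 kb, 0.14, adjusted p = 0.673) and Malsu1 (141 kb, 0.03). The tested neighbours of Igf2bp3 lay between -0.07 and 0.49, and 1 passed, as higher: Aoc1, a diamine oxidase gene, chosen after its values were seen. Over all genes tested in set 2, 6.05% passed, 2.04% as higher. None of the 8 was lower by over 0.07 on the log2 scale.

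Around Igf2bp1, 19 of 26 neighbours were tested in set 2, with log2 fold changes of -1.19 to 0.37. The nearest with a test were Snf8 (28.9 kb, -0.04), Ube2z (59.4 kb, 0.03) and Atp5g1 (69.7 kb, -0.14), and Gip, which lies nearer, did not pass the filter. One neighbour, Gngt2, passed as lower (-1.19, edgeR adjusted p = 0.0199) and was chosen after its values were seen. Around Igf2bp2, all 9 neighbours were tested. The nearest were Tra2b (103 kb, 0.06), Senp2 (154 kb, 0.06) and Liph (168 kb, -0.21), and 1 passed, as lower: the peroxisomal enzyme gene Ehhadh (-1.08, adjusted p = 0.00865), chosen after its values were seen. Over all genes tested in set 2, 4.01% passed as lower. In set 1 none of the tested neighbours passed, of which there were 19 for Igf2bp1, 9 for Igf2bp2 and 7 for Igf2bp3. None of all 13540 genes tested in set 1 passed either.

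**Figure D4:**
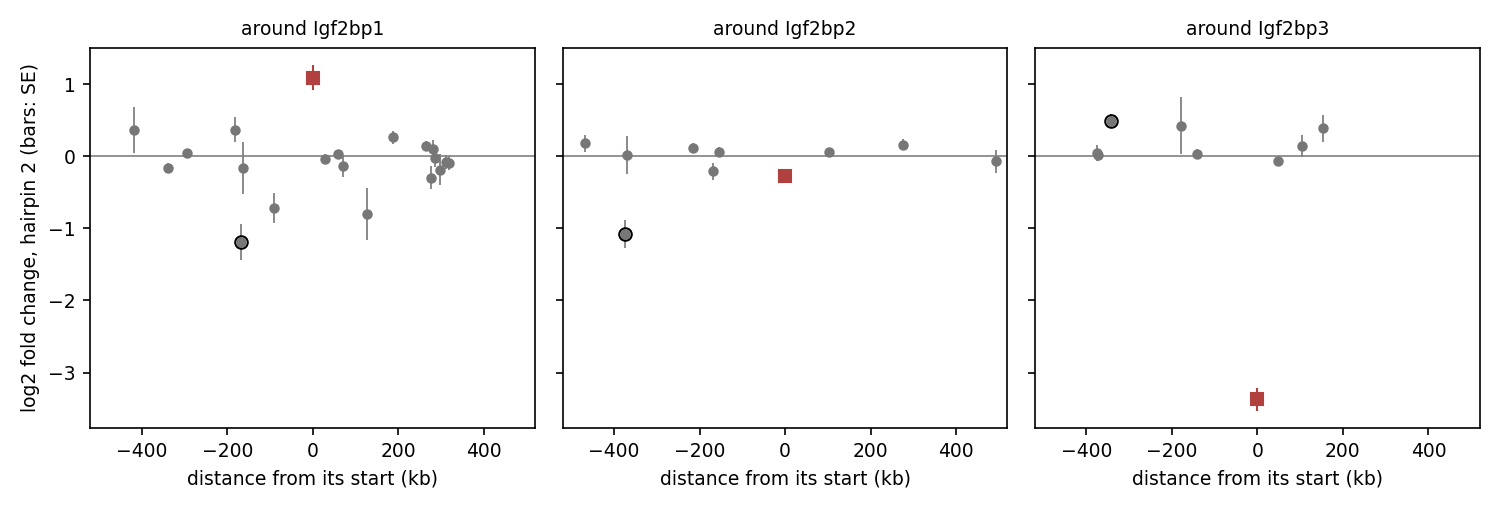
Log2 fold change with hairpin 2 (bars: SE) of each tested protein-coding gene against the distance of its start from the start of the member (kb, positive toward higher coordinates). The square is the member itself and rings mark neighbours past the threshold. No tested neighbour of Igf2bp3 is lower by over 0.07, against -3.37 for Igf2bp3.

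The promoters of Igf2bp3 and Igf2bp2 are shown for their CpG content, with every CpG in capitals. Each runs from 250 bases before the start to 50 after it, from the RefSeq table (GRCm38.p6). That table held no entry for Igf2bp1, so its promoter is not shown and cannot be compared.
Igf2bp3: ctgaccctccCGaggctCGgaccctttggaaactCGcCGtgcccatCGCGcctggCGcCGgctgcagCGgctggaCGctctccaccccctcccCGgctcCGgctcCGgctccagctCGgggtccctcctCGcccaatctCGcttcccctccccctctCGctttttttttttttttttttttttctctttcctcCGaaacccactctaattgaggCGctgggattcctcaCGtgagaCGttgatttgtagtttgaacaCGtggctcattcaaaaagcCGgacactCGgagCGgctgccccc
Igf2bp2: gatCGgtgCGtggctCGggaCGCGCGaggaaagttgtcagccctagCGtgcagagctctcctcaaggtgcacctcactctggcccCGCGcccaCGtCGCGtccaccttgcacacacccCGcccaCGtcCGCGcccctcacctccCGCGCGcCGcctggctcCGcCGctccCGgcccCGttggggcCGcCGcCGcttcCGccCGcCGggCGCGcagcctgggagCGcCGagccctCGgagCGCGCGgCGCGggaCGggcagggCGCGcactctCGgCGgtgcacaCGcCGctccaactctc
They lie at chr6:49214905-49215204 and chr16:22163250-22163549 on the minus strand. The Igf2bp3 promoter held 25 CpG in 300 bases, a number reached by 18.4% of 32851 promoters in the table, and the Igf2bp2 promoter held 47, reached by 1.44%. The median was 7. No chromatin or methylation data were analysed here, so the letters describe the sequence alone.

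The 5 genes whose pattern over the 8 set 2 libraries was most like that of Igf2bp3 were Car13, Car9, H2afy2, H1fx and Alkbh3. Likeness was the root mean square difference in log2(CPM + 0.5) after centring each gene, and it was 0.240 for Car13, 0.268 for Car9, 0.284 for H2afy2, 0.331 for H1fx and 0.334 for Alkbh3. Pearson's r with Igf2bp3 over the same 8 libraries, which share the hairpin contrast, was 0.977 to 0.995. The genes were picked by these values, so their set 2 changes are given without a test. Car13 and Car9 encode carbonic anhydrases, Car9 being a known hypoxia target. Car9 had 63.8 ± 5.58 CPM in control 2, against 9.47 ± 2.11 CPM with hairpin 2 (SD, n = 4 each), and Car13 had 7.70 ± 1.16 and 0.360 ± 0.0781 CPM (SD, n = 4 each).

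H2afy2, which encodes the histone variant macroH2A2, had 7.23 ± 1.81 CPM in control 2, against 0.590 ± 0.131 CPM with hairpin 2 (SD, n = 4 each). H1fx, a linker histone gene, had 5.45 ± 1.40 and 0.234 ± 0.180 CPM, and Alkbh3, a demethylase of alkylated nucleic acids, had 5.54 ± 0.369 and 0.620 ± 0.0891 CPM (SD, n = 4 each). In set 1 the 5 genes parted. H2afy2 and H1fx had at most 5 and 7 counts in any set 1 library, as low as Igf2bp3. Car13 was at 17.5 ± 8.95 CPM in control 1, against 22.3 ± 6.84 CPM with hairpin 1 (SD, n = 3 each), a log2 fold change of 0.35 (edgeR adjusted p = 0.874), and Alkbh3 was at -0.06 (adjusted p = 0.966). Car9 had 47.0 to 68.8 CPM in control 1, against 7.36 to 33.5 CPM in hairpin 1. Its log2 fold change of -1.33 (SE 0.512) did not pass (edgeR adjusted p = 0.801). That is the smallest value in set 1, but a tie that other genes share, Kmt5c, Clu and Cd44 among them. With Pearson's r alone as the measure 1 of the 5 remained among the likest 5, and with a pseudocount of 2 there were 2.

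**Figure D5:**
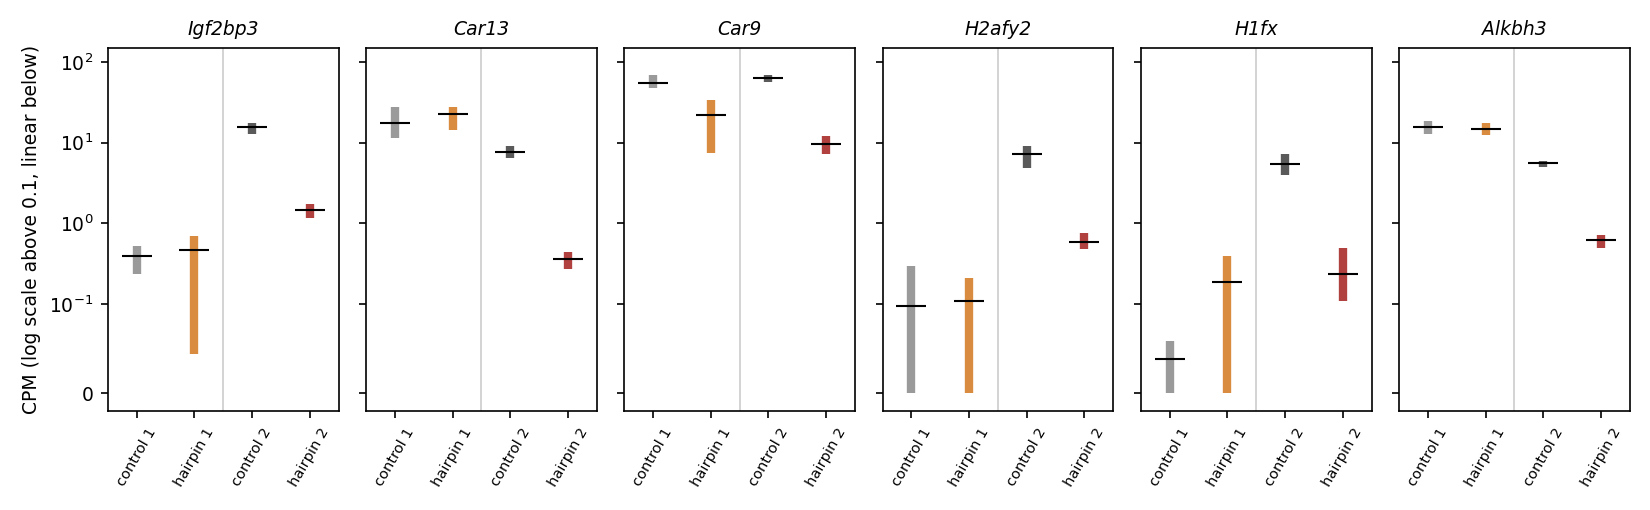
CPM of Igf2bp3 and of the 5 genes most like it over set 2, by group (bar: lowest to highest library, line: mean), on an axis that is logarithmic above 0.1 CPM and linear below. For all 6 the hairpin 2 mean lies below every control 2 library, while in set 1 Igf2bp3, H2afy2 and H1fx stay below 1 CPM and the other 3 do not.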

How the data were processed

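Each library has a deposited file of raw read counts by Ensembl gene, which are whole numbers and were used as they stand. Sequencing used poly(A)-selected, stranded libraries, per the labels' protocols. The submitters' processing notes name bcl2fastq 2.20, FastQC, STAR, featureCounts, DESeq2 and GRCm38, with versions and settings of the others not given in the sources used here. Symbols and positions came from GENCODE M21 (GRCm38), which matched 55240 of 55421 genes in set 1 and 17471 of 17490 in set 2.

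Groups came from the labels. Each set was fitted alone over all genes by the quasi-likelihood test of edgeR (version 4.0.16 under R 4.3.3), after TMM scaling and filterByExpr, at a Benjamini-Hochberg adjusted p under 0.05. Named genes were the members, Kmt5c, 7 fixed genes (Lin28a, Lin28b, Hmga2, Igf2, Igf1r, H19 and Myc), up to 4 called genes per list, the 5 likest to Igf2bp3 and the 3 nearest neighbours. The members and lists were chosen with earlier results of these data known. Some list genes are counted but not reported by name here. The fit was tested on simulated data: of genes changed by 1 on the log2 scale, 5.81% were recovered among 13227 genes for hairpin 1 against control 1 and 73.5% among 13960 for hairpin 2 against control 2. For a change of 3, these were 84.4% and 100%.

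Same-numbered libraries of set 2 deviated together (correlations 0.323, 0.214, 0.333 and 0.660), so the numbers were taken to pair them, from the data and not from the labels. Among replicates 1 to 3, libraries of different number correlated at 0.150 to 0.265, a range that holds the value of replicate 2 (0.214). Replicate 4 libraries correlated with those of other numbers at -0.461 to -0.327. The pairing thus rests mainly on replicate 4, and results with the replicate block depend on it. Alternatives were DESeq2 1.42.0, other scalings, no filter, the replicate block, 1 model of 14 libraries, leaving out each library and, added after the data were seen, leaving out both replicate 4 libraries of set 2 and list counts without hairpin 1 replicate 1. Poisson intervals cover counting error only. Figures used matplotlib 3.10.9.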

Additional observations from a re-analysis of the deposited data

Results flagged for a closer look

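Within groups of 4 libraries, a library was singled out where its gap to the nearest other took up most of the group's range (Dixon's test at the 95% level), which chance alone gives in about 1 of 20 groups. Of 33 groups examined over the named genes, 3 had such a library. Igf2bp2 in hairpin 2 had 190 CPM in replicate 4 against 216 to 219 CPM in the others. H19 in control 2 had 3.85 CPM in replicate 4 against 1.56 to 1.65 CPM in the others. Igf2 in control 2 had 0.0401 CPM in replicate 4, which is 1 count, and none in the others. All 3 are replicate 4 libraries of set 2, and without both of these libraries the log2 fold change of Igf2bp2 was -0.24.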

How the results depend on the processing

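In set 2 each member kept its direction under all 15 alternatives, and none moved by more than the spread between replicates. The SE was wider in the model of 14 libraries. There Igf2bp2 was at -0.27 (SE 0.349, against 0.0599 in the main fit), a change smaller than its SE. Igf2bp1 was at 1.08 (SE 0.617, against 0.174) and Igf2bp3 at -3.40 (SE 0.44, against 0.157). All the alternatives reuse the libraries on which Igf2bp3 was chosen, so its steadiness is given as a description. In set 1, Igf2bp1 turned to -0.85 without hairpin 1 replicate 1 and ran up to 1.58 on leaving out another library. Igf2bp2 turned to -0.96 without hairpin 1 replicate 1, to -0.08 without control 1 replicate 2 and to -0.27 with the replicate block, and ran up to 0.43. Igf2bp3, fitted there only where it passed the filter, was at -0.01 to 0.79 on leaving out 1 library. The number of genes called for hairpin 1 was 0, and 20 by DESeq2, 187 in the model of 14 libraries and 0 to 1 on leaving out a library. The replicate block gave 0. For hairpin 2 it was 854, and 1346 by DESeq2, 2880 with the replicate block, 120 in the model of 14 libraries, 2394 without both replicate 4 libraries and 453 (without control 2 replicate 2) to 1409 (without hairpin 2 replicate 4) on leaving out 1. The number of pathway list genes called for hairpin 2 was 4, and 15, 29, 1, 26 and 1 to 14 in the same order, and for hairpin 1 it was 0, against 2 in the model of 14 libraries. Same-numbered libraries of set 1 correlated at 0.254, -0.00381 and 0.287, against -0.265 to 0.175 for different numbers. Whether they pair was not settled. By longest transcript in place of merged exons, Igf2bp3 over Igf2bp1 kept its order in all groups. Igf2bp3 in set 1 and in hairpin 2 rests on at most 44 counts per library, which limits its precision.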
